A study of Arabidopsis thaliana with 4 samples.

Results

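The ATH1 array of Arabidopsis thaliana carries probe sets for genes of the mitochondrial and plastid genomes in a run of consecutive numbers. The run starts at the probe set just before that of nad4L and ends at that of psbK. Every probe set in that run was taken, 150 of the 22746 on the array that are not controls, whatever its signal. By the platform annotation, 77 were listed for genes of the plastid genome and 13 for genes of the mitochondrial genome. Another 5 were listed for chromosome 2 loci beginning AT2G07, in a stretch known to hold inserted mitochondrial DNA with near-identical copies. Their signals cannot be assigned to 1 genome. The 13 listed as mitochondrial may also pick up such copies, which was not tested. A further 10 were listed for ordinary nuclear genes of chromosome 2 (AT2G26), which the numbering runs into. The other 45 had no gene listed: 20 lie in the numbering between mitochondrial probe sets, 3 between plastid ones, 5 between AT2G07 loci, 6 between AT2G26 genes, and 11 between neighbours of different kinds. The name of the run fitted its listed genes except for the 15 on chromosome 2. Any organelle genes on probe sets outside the run are not covered here.

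Plastids and mitochondria keep small genomes of their own. Plastid genes encode core subunits of both photosystems, the cytochrome b6f complex, ATP synthase and the NDH complex (a plastid relative of respiratory complex I), the large subunit of Rubisco, and parts of a bacterial-type RNA polymerase and ribosome. The rest of each complex comes from nuclear genes. Many plastid genes are transcribed together from 1 promoter and then cut and spliced, by the plastid-encoded polymerase for most photosynthesis genes and by a nuclear-encoded phage-type polymerase for others such as accD and the rpoB group. The mitochondrial genome encodes subunits of the respiratory complexes and proteins that attach heme to cytochrome c. In both organelles a short poly(A) tail marks RNA for decay, unlike the long tail of nuclear mRNA, and a label primed on poly(A) is therefore not a plain measure of organelle transcript amount.

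The 4 samples were flasks of Landsberg erecta (Ler) seedlings grown 10 days in liquid culture under continuous light and treated for 1 h. GR-REV dexamethasone and GR-REV mock came from seedlings with a transgene for REVOLUTA, an HD-ZIP III transcription factor, made resistant to its microRNA, fused to the glucocorticoid receptor domain and driven everywhere by the viral 35S promoter. Wild type dexamethasone and wild type mock were Ler without the transgene. Dexamethasone, the steroid that lets such a fusion enter the nucleus, was given at 50 µg/ml in 0.1% ethanol, and mock flasks received 0.1% ethanol. Each group was 1 flask and 1 array, and the labels do not say whether the GR-REV seedlings were of 1 transgenic line. The titles and treatment protocols of both GR-REV arrays contradict their source names, which exchange dexamethasone and mock. Groups follow the titles, and with the source names every difference between those 2 arrays would have the other sign. The comparisons of genotypes within a treatment and the fits that hold treatment would change too.

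The values are MAS5 signals, 1 background-corrected brightness per probe set, scaled to the same trimmed mean on every array. A floor of 91.4, under which 40% of all values lie, was applied before taking log2, and a signal at the floor is only a bound. The number of arrays limits the precision. Signals of different probe sets depend on their probes and on how each RNA was labelled, so they are not set against each other as transcript amounts. In whole seedlings fewer cells of a type and less RNA per cell cannot be told apart.

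The control probe sets differed between arrays. Nuclear 25S rRNA, which like organelle RNA lacks a long poly(A) tail, gave 929 on GR-REV dexamethasone, 859 on GR-REV mock, 768 on wild type dexamethasone and 293 on wild type mock. It was lowest on wild type mock, and both GR-REV arrays lay above both wild type arrays. The 9 hybridization controls, labelled bacterial and bacteriophage RNAs added after the sample was labelled, had geometric means of 1419, 1309.7, 1993 and 1449.9 in the same order, so they were highest on wild type dexamethasone. The actin 3′ over 5′ ratio was 1.95, 2.92, 2.86 and 2.17 in that order, with no separation of the genotypes. The part of labelling and scaling in the differences below was not tested.

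Plastid probe sets were bright and mitochondrial ones were mostly dim. Of the 77 plastid probe sets, 73 lay above the floor on all 4 arrays, and their median signals were 5788 on GR-REV dexamethasone, 5759.7 on GR-REV mock, 7741 on wild type dexamethasone and 8458 on wild type mock. Over all 22746 probe sets, 12252 were above the floor on all arrays, with median signals of 163, 161, 156 and 181. Both wild type medians of the plastid probe sets were thus above both GR-REV medians, while the medians of all probe sets were not ordered by genotype. Only rps14, a protein of the small ribosomal subunit, was at the floor on every array among the plastid genes. The gene ndhF, an NDH subunit, was above it on 1 array (122 on wild type dexamethasone), ycf2 on 2 and ndhB on 3.

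The 3 brightest plastid probe sets were those of atpB and atpE, subunits of ATP synthase whose genes adjoin, and psbM, a small subunit of photosystem II. The signal of atpB was 26992 on GR-REV dexamethasone, 26420.4 on GR-REV mock, 37892 on wild type dexamethasone and 28392 on wild type mock. It was the brightest probe set of the whole array on both dexamethasone arrays. Signals of atpE were 25089.7 and 25397 in GR-REV against 34439.6 and 25865 in wild type, each pair with dexamethasone first. The psbM signals were 20605 and 22687 in GR-REV against 30439 and 22246 in wild type, so here the genotypes overlapped.

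Of the 13 mitochondrial probe sets, 6 were above the floor on all arrays and 4 were at it on all arrays (nad4L and nad7 for complex I subunits, ccb203 for cytochrome c maturation and matR for a maturase). Their median signals were 118, 87.7, 111 and 120.0 on GR-REV dexamethasone, GR-REV mock, wild type dexamethasone and wild type mock. The nad4L signals were 73.7 and 78.3 in GR-REV, against 50.5 and 75.7 in wild type, all bounds. The gene ccb382, which encodes a subunit of the heme lyase for cytochrome c, had the brightest listed probe set with 1 mitochondrial gene. It gave 1586 and 1251 in GR-REV, against 2397 and 2405 in wild type. Of the 20 probe sets with no gene listed that lie between mitochondrial ones, 18 were at the floor on all arrays and 1 was above it on all.

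**Figure D1:**
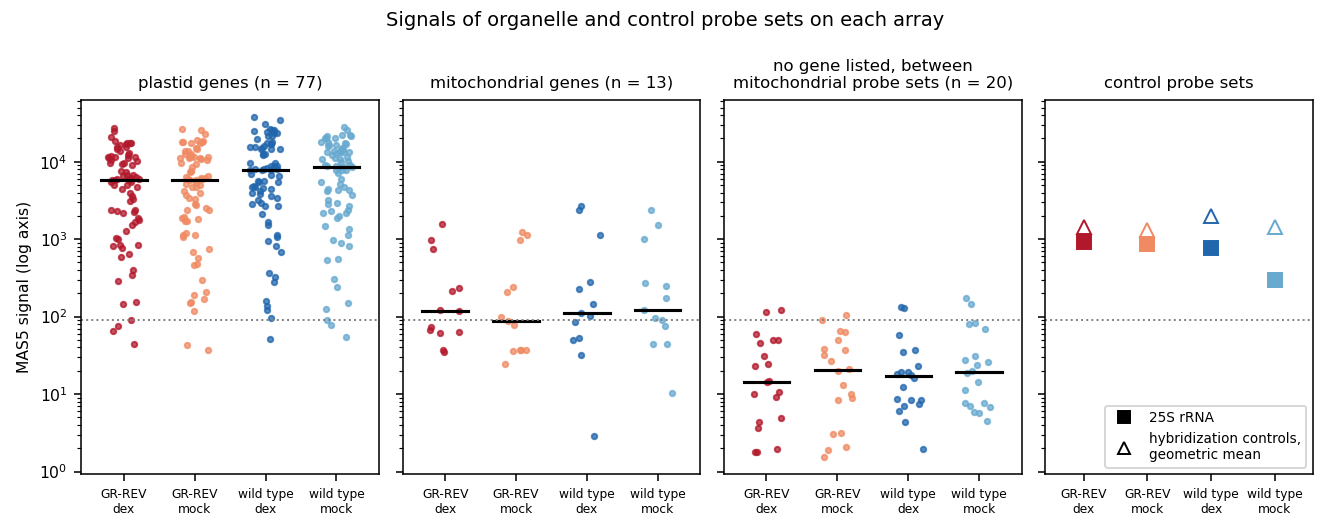
MAS5 signal on a log axis for the 77 plastid and 13 mitochondrial probe sets, the 20 with no gene listed between mitochondrial ones, and the controls, on each array; bars are medians and the dotted line is the floor of 91.4. Plastid medians lie between 5759.7 and 8458, mitochondrial medians between 87.7 and 120.0, and the 25S rRNA control is lowest on wild type mock.

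Genotype was compared over 2 arrays a side. Plastid signals were lower in GR-REV across nearly all genes: among the 73 above the floor on all arrays the median difference, GR-REV minus wild type, was -0.48 on the log2 scale, 1.40-fold lower, with quartiles of -0.73 and -0.30, and 67 were below 0. Over all 12252 such probe sets the median was -0.015 and 51.8% were below 0. For single genes the shift was mostly within the error of 2 arrays against 2. With limma, fitted over the 14034 probe sets that exceeded the floor on 2 or more arrays and adjusted by Benjamini-Hochberg, 2 of 75 plastid genes tested fell in GR-REV and 0 rose at an adjusted p under 0.05, against 0.492% lower and 1.28% higher among all tested. At an unadjusted p under 0.05, 26 of the 75 were lower (34.7%) and 1 higher (1.33%), against 7.95% lower and 8.41% higher of all probe sets. Both GR-REV arrays lay below both wild type arrays for 53 of the 75, against 24.2% of all, and above them for 1, against 22.4%. The labels give no replicate flasks, so the spread in this test is that between mock and dexamethasone flasks and may hold treatment responses. With treatment as a term, which takes the GR-REV treatments from the titles and leaves 1 residual degree of freedom, 10 plastid genes were lower (3.06% of all) and 1 was higher (4.05% of all). Those 10 were ndhE, psbB, psbT, rpoC2, 1 rps12 probe set, psaC, ndhG, rps18, psbH and psbD, with adjusted p from 0.00478 to 0.0493, and the higher one was ccsA (0.0192). Adjusted p below are without that term unless it is named.

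The size of the shift depended on the scaling of the arrays. Scaled by the hybridization controls, an alternative chosen after seeing the data, the median of all probe sets moved to 0.30, the plastid median to -0.16, and the distance between them was -0.46, against -0.47 with the deposited scaling. With the hybridization controls as scale neither of the 2 calls remained and 1 plastid gene was called higher. With quantile normalization the distance was -0.32 and both calls remained. The 25S rRNA control differed by 0.91 in the other direction.

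The genes that fell were ndhE and psbT. The gene ndhE encodes a membrane subunit of the NDH complex, and its signals were 1038 on GR-REV dexamethasone and 1202 on GR-REV mock, against 2644 on wild type dexamethasone and 2842 on wild type mock. The genotypes were well apart and treatments close, a difference of -1.30 ± 0.17 (SE), 2.45-fold lower in GR-REV (limma, adjusted p = 0.0303). For psbT, a small subunit of photosystem II, signals were 1012 and 1135 in GR-REV against 2119.6 and 2306 in wild type. This was a difference of -1.04 ± 0.16, 2.06-fold lower (adjusted p = 0.0493). Of 15 alternatives ndhE was called in 10, with an adjusted p between 0.00478 and 0.158, and psbT in 6, between 0.0100 and 0.272. Leaving out the wild type dexamethasone array ended both calls, with adjusted p of 0.0805 for ndhE and 0.111 for psbT. So did leaving out wild type mock (0.0880 and 0.132) or GR-REV dexamethasone (0.0547 and 0.124), while without GR-REV mock ndhE kept its call (0.0209) and psbT did not (0.0544).

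The single plastid gene with both GR-REV arrays above wild type was ccsA, which encodes a protein that attaches heme to cytochromes of the plastid. Its signals were 13599 on GR-REV dexamethasone and 14964 on GR-REV mock, against 6469 on wild type dexamethasone and 4159 on wild type mock. The difference of 1.46 ± 0.26, 2.75-fold higher in GR-REV, did not pass the test (limma, adjusted p = 0.0667). It was called in 5 of 15 alternatives, treatment as a term among them, with an adjusted p between 0.000353 and 0.366.

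**Figure D2:**
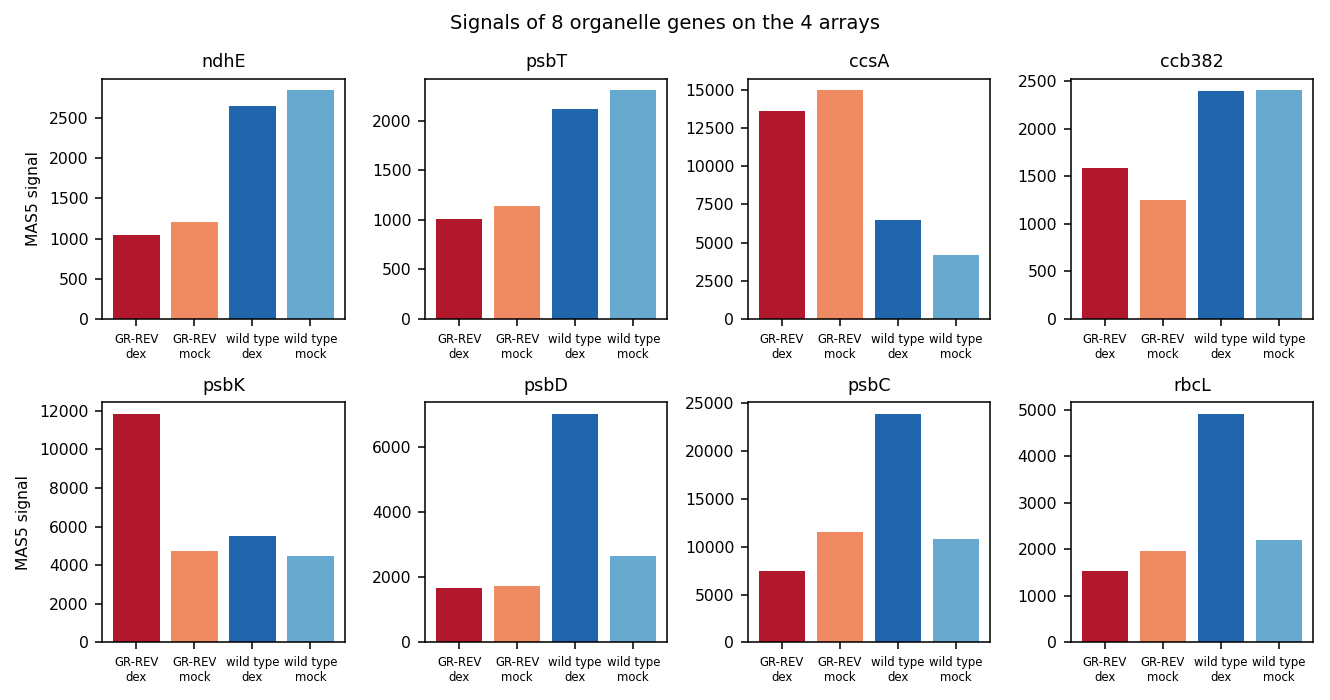
MAS5 signals of 8 organelle genes, 1 bar per array with no replicate error; dex is dexamethasone. The bars of ndhE, psbT and ccb382 are lower on both GR-REV arrays and those of ccsA are higher, whereas psbK stands out on GR-REV dexamethasone (11844) and psbD, psbC and rbcL on wild type dexamethasone (7026, 23921 and 4913).

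By role, the NDH complex had the lowest median. All 9 of its genes above the floor on every array were below 0, with a median of -0.72 and a range from -1.30 (ndhE) to -0.42 (ndhI). Of 10 tested, 6 were lower at an unadjusted p under 0.05 (60%, limma), against 34.7% of the plastid genes and 7.95% of all probe sets. The ndhG signals were 396 and 208 in GR-REV against 675 and 549 in wild type, dexamethasone first in each pair (-1.09 ± 0.35, adjusted p = 0.215, or 0.0412 with treatment as a term). For the plastid RNA polymerase all 4 genes were below 0, with a median of -0.61. Its largest catalytic subunit gene rpoC2 had 2267 and 2398 in GR-REV against 4244 and 5189 in wild type, with no overlap (-1.01 ± 0.18, adjusted p = 0.0628, or 0.0154 with treatment as a term). The smallest difference in this list was -0.48 ± 0.27, for rpoB.

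Genes of photosystem II were spread more widely than those of photosystem I. All 7 genes of photosystem I and its assembly were below 0, with a median of -0.48, from -0.99 ± 0.22 for psaC, the iron-sulfur subunit (adjusted p = 0.101, or 0.0349 with treatment as a term), to -0.27 ± 0.24 for ycf3, an assembly factor. Of 15 photosystem II genes, 13 were below 0 with a median of -0.39. The lowest was psbD, which encodes the D2 protein of the reaction centre. Its signals were 1659 and 1723 in GR-REV against 7026 on wild type dexamethasone and 2649.9 on wild type mock, so that most of its difference of -1.35 ± 0.45 (adjusted p = 0.222, or 0.0493 with treatment as a term) came from 1 array. Without wild type dexamethasone it was -0.65, and without wild type mock -2.05. The gene psbB, for the CP47 antenna protein, had 1761 and 1146 in GR-REV against 3794 and 2930.5 in wild type (-1.23 ± 0.26, adjusted p = 0.0958, or 0.00682 with treatment as a term). At the other end were psbK (0.59 ± 0.44) and psbI (0.19 ± 0.22), both for small subunits. Without GR-REV dexamethasone both turned to the other side of 0, -0.069 for psbK and -0.063 for psbI.

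The remaining lists had medians between -0.44 and -0.31. The cytochrome b6f genes together with ccsA had a median of -0.39 (7 genes, 5 below 0), with petL, a small subunit, lowest at -0.80 ± 0.21. For ATP synthase the median was -0.31 (6 genes, all below 0), from -0.68 ± 0.22 for atpI to -0.24 ± 0.26 for atpA. The ribosomal proteins had a median of -0.44 (19 genes, 17 below 0). Their lowest was 1 of the probe sets listed for rps12, at -0.95 ± 0.16 (826 and 739 in GR-REV against 1529 and 1483 in wild type, adjusted p = 0.0619, or 0.0162 with treatment as a term). The other rps12 probe set was at -0.51 ± 0.18, so the probe sets of this gene, whose exons lie apart in the genome and are joined in trans, differed in size. Highest was rpl14, at 0.10 ± 0.16. The mixed list of rbcL, accD, clpP, matK, cemA and ycf1 had a median of -0.36 (6 genes, all below 0), with rbcL, the large subunit of Rubisco, at -0.92 ± 0.39.

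**Figure D3:**
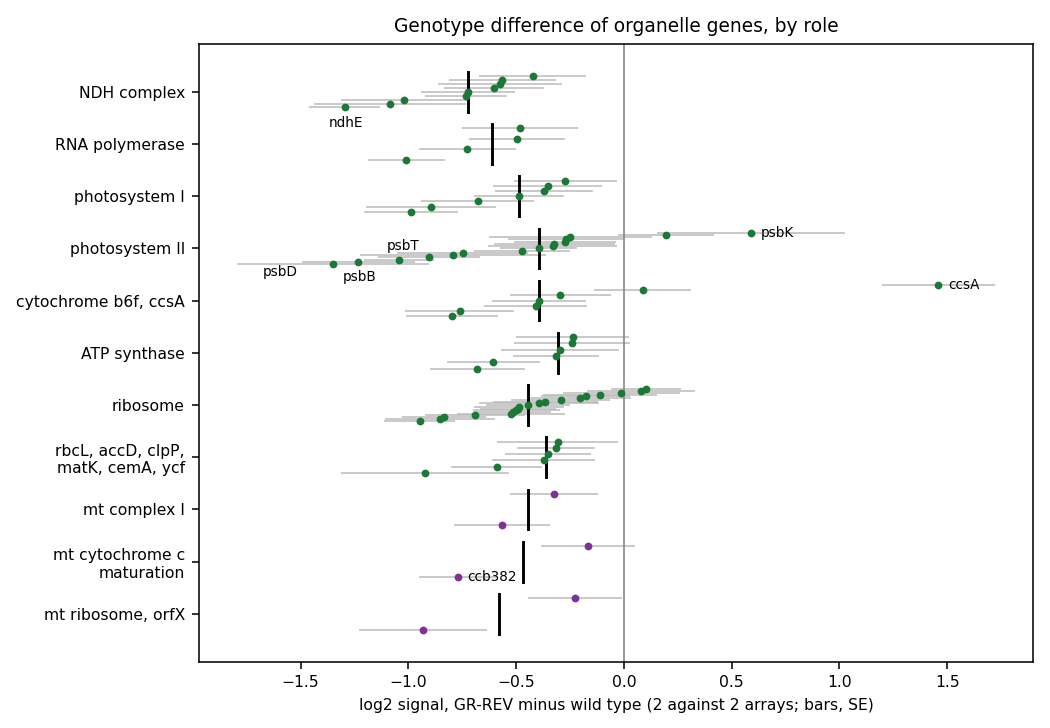
Difference in log2 signal, GR-REV minus wild type, for each organelle gene above the floor on all 4 arrays, grouped by role; points are probe sets, grey bars SE and black bars list medians, plastid in green and mitochondrial (mt) in purple. List medians run from -0.72 for the NDH complex to -0.31 for ATP synthase among plastid lists, with ccsA alone far above 0 at 1.46.

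Neighbouring genes were looked at after their values had been seen. In the gene order of the RefSeq table (assembly TAIR10.1), psaC, ndhE, ndhG, ndhI, ndhA and ndhH follow each other and are known to be transcribed together. Their differences were -0.99, -1.30, -1.09, -0.42, -0.72 and -1.02, all below 0, with ndhI between them the smallest in size. The genes on either side of this stretch, ndhD and rps15, were at -0.60 and -0.39. The psbB gene cluster runs psbB, psbT, psbH, petB and petD on 1 strand, and its differences were -1.23, -1.04, -0.90, -0.41 and 0.087 in that order. The probe set of psbN, which lies inside the cluster on the opposite strand, differed by -0.32. The petD signals were low, 147 and 155 in GR-REV against 159.5 and 126 in wild type, with the genotypes overlapping. On either side of ccsA (1.46) lay rpl32 at -0.85 and ndhD at -0.60, both in the other direction. The adjoining genes psbK and psbI were the pair above 0 described above.

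**Figure D4:**
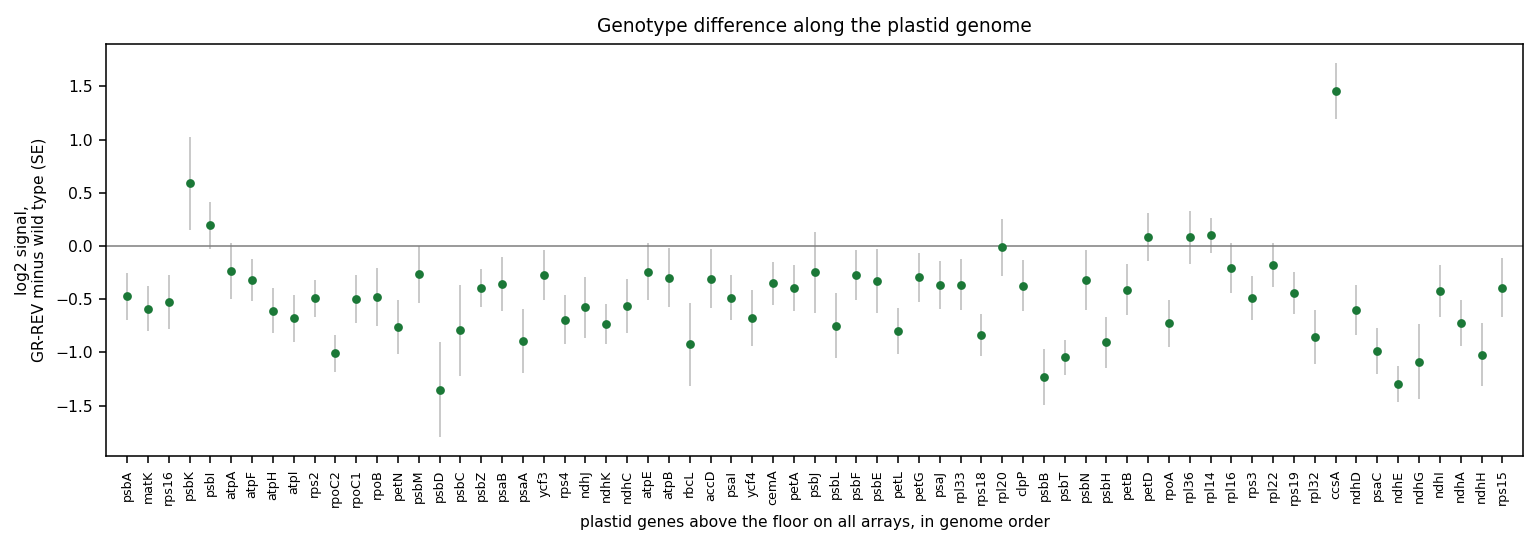
Difference in log2 signal, GR-REV minus wild type, with SE bars, for 67 plastid genes in genome order (evenly spaced, not by distance). Most points lie between -1 and 0. The psbB to psbH and psaC to ndhH stretches hold several of the lowest, apart from psbN (-0.32) and ndhI (-0.42). The highest is ccsA, between rpl32 and ndhD.

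The mitochondrial genes lay on the same side. Of 13, 8 were tested and 0 called. At an unadjusted p under 0.05, 3 of the 8 were lower (37.5%, against 7.95% of all probe sets). All 8 had both GR-REV arrays below both wild type arrays, against 24.2% of all. For ccb206, of cytochrome c maturation, and nad6, of complex I, the filter fixed that order, since only their wild type arrays exceeded the floor. Of the untested genes under the floor on every array, matR had the reverse order and nad7 the same order. For nad4L and ccb203 the genotypes overlapped. The median difference of the 6 above the floor on all arrays was -0.44, and it was -0.13 with the hybridization controls as scale. For ccb382 the difference was -0.77 ± 0.18 (1.70-fold lower, adjusted p = 0.116), and of 15 alternatives it was called in 1, with treatment as a term (0.0370). The complex I genes nad9 and nad4 differed by -0.57 ± 0.22 and -0.32 ± 0.20. The nad9 signals, 118 and 98.0 in GR-REV against 147 and 172 in wild type, were close to the floor. Smallest were ccb452, for another part of the heme lyase, at -0.17 ± 0.22, and orfX, for a membrane transport protein, at -0.23 ± 0.22. Both turned above 0 with the hybridization controls as scale, to 0.15 and 0.091. A probe set listed for 2 mitochondrial genes of ribosomal proteins had 983 and 1146 in GR-REV against 2695 and 1523 in wild type (-0.93 ± 0.30, adjusted p = 0.207).

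Within each treatment the comparison of genotypes rests on 1 array a side, has no test, and shares its arrays with the other comparisons. By the source names each GR-REV array would be set against the other wild type array, and the values below would change. For example psbK, at 4749 on the array titled GR-REV mock, would then lie below wild type dexamethasone (5518). Between the dexamethasone flasks 10 plastid probe sets were at least 2-fold lower in GR-REV and 2 at least 2-fold higher, against 2.07% and 3.18% of all probe sets, with a median of -0.56 and 64 of 73 below 0. The lowest were psbD (-2.08), rbcL (-1.68) and psbC (-1.67), and the higher ones psbK (1.10) and ccsA (1.07). Between the mock flasks 13 were at least 2-fold lower and 1, ccsA (1.85), higher, against 2.95% and 2.36% of all, with a median of -0.42 and 62 of 73 below 0. There the lowest were ndhH (-1.56; 464 in GR-REV against 1373 in wild type), ndhG (-1.40), psaA (-1.39; 3420.4 against 8995) and psbB (-1.36). The genes psaA, for a reaction centre protein of photosystem I, and ndhH differed less between the dexamethasone flasks (-0.39 and -0.48). Of the mitochondrial probe sets 1 was 2-fold lower, the one listed for 2 genes, between dexamethasone flasks (-1.45), and 0 were between mock flasks.

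Between dexamethasone and mock in GR-REV, the pair of arrays the study was built around, the plastid probe sets as a group stayed close to the rest of the array. Their median was -0.054, against 0.013 for all probe sets, and 45 of 73 were below 0. At least 2-fold higher was 1 of 77, and 0 were at least 2-fold lower, against 1.22% and 1.21% of all. The gene past 2-fold was psbK, with 11844 on GR-REV dexamethasone and 4749 on GR-REV mock, a 2.49-fold difference, where wild type had 5518 with dexamethasone and 4498 with mock. The array titled GR-REV dexamethasone stood apart from the other 3, which were close together. Next were ndhG (0.93), psaA (0.82; 6033 with dexamethasone, 3420.4 with mock) and ndhH (0.74; 777 and 464). For these 3 the GR-REV mock array was the lowest of the 4. Leaving aside genes that touch the floor, the lowest differences were psbC (-0.61), ndhJ (-0.58; 1262 and 1889), psbA (-0.51; 3323 and 4747), which encodes the D1 protein, and rpoC1 (-0.47; 4499.6 and 6225). Mitochondrial genes had a median of -0.025, and 0 of 13 reached 2-fold.

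Between dexamethasone and mock in wild type, single plastid genes differed by more than their median did. At least 2-fold higher were 3 of 77 and at least 2-fold lower 1, against 0.554% and 1.68% of all probe sets, and the median was 0.16 against -0.056 for all. The higher ones were psbD and psbC, adjoining genes that are transcribed together and encode D2 and the CP43 antenna protein, and rbcL. The psbD signals were 7026 on wild type dexamethasone and 2649.9 on wild type mock, 2.65-fold higher. Those of psbC were 23921 and 10862, 2.20-fold higher, and those of rbcL 4913 and 2206, 2.23-fold higher. For all 3 the wild type dexamethasone array stood above the other 3 arrays. It was also the array with the brightest hybridization controls, by 0.46 on the log2 scale over wild type mock. Scaling by those controls moves every probe set of this pair down by that amount before the floor is applied. With that scale 0 plastid probe sets were 2-fold higher and 7 were 2-fold lower, counts not set against all probe sets. The 25S rRNA control was 1.39 higher on the log2 scale.

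Lower in wild type with dexamethasone was psbJ, 2.08-fold, with 4708 against 9789 on wild type mock. Its neighbours psbL (-0.82; 2678 against 4737) and psbE (-0.84; 4721 against 8465), with which it is transcribed, were the next lowest. They encode small subunits of photosystem II, psbE a chain of cytochrome b559. For all 3 wild type mock was the highest of the 4 arrays. The photosystem I assembly gene ycf4 was at -0.64 (5580.0 against 8709), and accD, a subunit of the acetyl-CoA carboxylase that starts fatty acid synthesis, at 0.77 (5511 against 3222). Mitochondrial genes had a median of 0.014, and 0 reached 2-fold.

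With both genotypes in 1 limma fit and genotype as a term, dexamethasone against mock gave 0 calls among the 75 plastid and the 8 mitochondrial genes tested, against 0.0428% of all (6 of 14034). This fit has 1 residual degree of freedom. At an unadjusted p under 0.05, 4 plastid genes were higher (5.33%) and 2 lower (2.67%), against 4.60% higher and 6.91% lower of all probe sets, and 0 mitochondrial genes were on either side. The plastid median was 0.077.

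**Figure D5:**
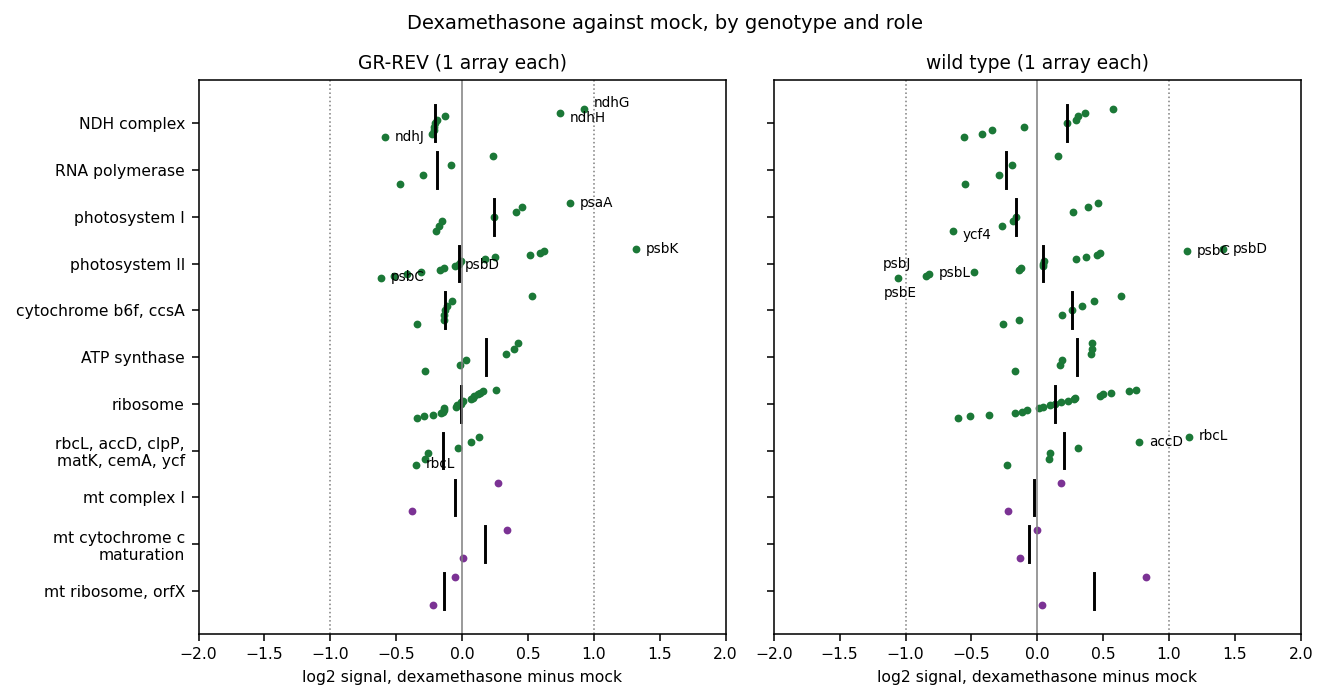
Difference in log2 signal, dexamethasone minus mock, in GR-REV and in wild type, for organelle genes above the floor on all arrays, by role; black bars are list medians and dotted lines mark 2-fold, with 1 array each and no error. In GR-REV only psbK passes 2-fold, and in wild type psbD, psbC and rbcL pass it upward and psbJ downward.

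Nuclear genes of the same complexes were compared where a probe set was listed for them alone. Probe sets listed for several genes were left out, so genes without one here may still be on the array. Of 47 nuclear photosynthesis genes 9 had such a probe set. Of the 9, 8 were below 0 in GR-REV against wild type, with a median of -0.35. Of all probe sets above the floor on every array 51.8% were below 0. The 1 that fell was LHCB4.3, an antenna protein of photosystem II, with 285 and 381 in GR-REV against 2282 and 2031 in wild type (-2.71 ± 0.21, limma, adjusted p = 0.00963). Among all probe sets tested 0.492% were called lower. The 1 above 0 was LHCB4.2, with 12227 and 11338 in GR-REV against 6909 and 7394 in wild type (0.72 ± 0.19, limma, adjusted p = 0.143). Of 42 nuclear genes for mitochondrial respiration 21 had such a probe set. The 21 probe sets tested had a median of 0.025, with 10 below 0 and single differences from -0.90 to 2.45. The mitochondrial-genome median, over 6 probe sets, was -0.44. Between mock flasks the median of the nuclear list was 0.24, and between dexamethasone flasks -0.12. The 1 that rose was AT2G33220, a complex I subunit, with 1763 and 1884 in GR-REV against 337 and 328.5 in wild type (2.45 ± 0.17, adjusted p = 0.00717). Among all probe sets tested 1.28% were called higher. For CYTC-2, a cytochrome c, signals were 614 and 899 in GR-REV against 1737.5 and 1111 in wild type, a difference past 2-fold between the dexamethasone flasks that did not pass the test (adjusted p = 0.222). Of 20 nuclear genes for organelle transcription and RNA decay 2 had such a probe set, neither above the floor on all arrays. As a check of tissue, 1 of 9 root markers had such a probe set, PYK10, a root beta-glucosidase. It gave 15758 and 16494 in GR-REV against 10171 and 14189 in wild type (0.42 ± 0.25, adjusted p = 0.479). The part of tissue makeup in the plastid difference was not tested.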

How the data were processed

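The authors deposited 1 intensity per probe set on a linear scale, MAS5 signals per the submitters' processing notes; the version is not given in the sources used here. Each array had a 2% trimmed mean of about 500.05, so no further scaling was applied. Settings files hold no RNA values and were not used. All arrays were hybridized on 1 day, with a separate fluidics module for every array: modules and groups cannot be told apart. Names came from the platform annotation, checked against RefSeq TAIR10.1; 8 plastid probe sets match both copies of an inverted-repeat gene. From the signals, 64 controls were left out, a floor of 91.4 was set, log2 was taken, and a linear model with a mean-variance trend was fitted by limma 3.58.1 (R 4.3.3) to probe sets exceeding the floor on 2 or more arrays, after being tested on simulated data. Named were nad4L, ccb382, called genes, the 4 highest and 4 lowest per genome and comparison, the 3 brightest, the ends of each list, and nuclear genes called or 2-fold apart; others were chosen after their values were seen. Members and lists were chosen with earlier results of these data known. Alternatives changed floor, scaling, filter, model, arrays left out, fold and the GR-REV labels.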

Additional observations from a re-analysis of the deposited data

Results flagged for a closer look

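For 3 plastid genes the dexamethasone difference was past 2-fold higher in wild type and below 0 in GR-REV, for psbD by almost nothing. On the log2 scale psbD was at -0.054 in GR-REV and 1.41 in wild type, psbC at -0.61 in GR-REV and 1.14 in wild type, and rbcL at -0.35 in GR-REV and 1.15 in wild type. With 1 array per group the difference between the genotypes was not tested. By the source names the GR-REV values would have the other sign, and all would lie above 0.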

How the results depend on the processing

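Of the values that summarise a comparison, 333 stayed within the spread or 1.5 times of those reported, 50 moved and 4 changed sign. Limits come from 1 array per group and from signals near the floor, where most mitochondrial probe sets lie. With array scaling by the hybridization controls (chosen after seeing the data, the cause not tested), the genotype medians became -0.16 for plastid and -0.13 for mitochondrial genes, with 0 plastid genes lower and 1 higher; the treatment medians -0.21 and -0.28 with 8 plastid genes lower; the wild type dexamethasone medians -0.30 and -0.44 with 0 plastid genes higher and 7 lower; between dexamethasone flasks -0.066 and 0.033 with 3 plastid and 0 mitochondrial probe sets lower; and between mock flasks 6 plastid lower. The mitochondrial genes orfX and ccb452 then turned above 0 for genotype (0.091 and 0.15). Before the floor, this scaling moves all probe sets of a comparison by the same amount. The share of all probe sets called was not set beside these counts, so they do not set plastid genes apart.

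In the genotype test, plastid genes lower numbered 10 with treatment as a term, 4 with the floor value added, 1 with a floor at the 60th percentile, division by the median or eBayes without trend, and 0 with no filter. Plastid genes higher numbered 1 with treatment as a term, the floor value added or quantile normalization. Mitochondrial genes lower numbered 1 with treatment as a term. With that term 3.06% of all probe sets tested were lower and 4.05% higher. The shares for the other settings were not set beside the counts in this paragraph, so those counts do not set plastid genes apart. Leaving out 1 array at a time gave 0 to 3 plastid genes lower and 0 to 1 higher, with 0 lower and 1 higher without wild type dexamethasone; the plastid median was then -0.51 to -0.42 and the mitochondrial -0.47 to -0.38. Without GR-REV dexamethasone, psbK (-0.069) and psbI (-0.063) turned, against up to 1.25 and 0.45 without GR-REV mock. The mitochondrial median was -0.77 with a floor at the 60th percentile, where fewer genes remain, -0.28 with one at the 25th and -0.31 with the floor value added.

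By the source names the GR-REV pair had medians of 0.054 (plastid), 0.025 (mitochondrial) and -0.013 (all), a plastid distance of 0.068, and 0 plastid probe sets higher and 1 lower. Quantile normalization gave a plastid median of -0.27 and a distance of -0.24 between dexamethasone flasks, a distance of -0.072 in the wild type pair, against 0.21, and 1 mitochondrial probe set lower between mock flasks. Division by the median gave 6 plastid probe sets lower between mock flasks, and in the wild type pair 0 plastid lower and 1 mitochondrial higher. At a threshold of 3-fold, 3 plastid probe sets were lower between dexamethasone flasks and 0 higher, 0 mitochondrial lower, 0 plastid lower between mock flasks, 0 higher in the GR-REV pair, and 0 higher and 0 lower in the wild type pair. A floor at the 25th percentile gave 2 mitochondrial probe sets lower between mock flasks. Plain probe sets alone gave mitochondrial medians of 0.27 in the GR-REV pair and -0.81 between mock flasks, and 0 lower between dexamethasone flasks. The share of all probe sets was not set beside the counts in this paragraph, so they do not set organelle genes apart. No paired analysis was possible because each group holds replicate 1 only, so replicate numbers match nothing; the fit with treatment as a term sets genotypes side by side within a treatment.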

Other observations

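Of the probe sets in the numbered run that are not organelle genes, AT2G26500 encodes PetM, a nuclear subunit of the cytochrome b6f complex, and was picked out after its values were seen. It gave 11471 on GR-REV dexamethasone and 13720.4 on GR-REV mock, against 24758 on wild type dexamethasone and 18812 on wild type mock. The genotypes did not overlap, and the difference was -0.78 ± 0.25 (limma, adjusted p = 0.213), on the side of most plastid genes of that complex. For the pseudogene AT2G26630 the GR-REV signals of 21.4 and 13.8 lay under the floor and are only bounds. Its wild type signals, 253 with dexamethasone and 194 with mock, exceeded the floor. Only these wild type values brought the probe set through the filter, and the floor left its GR-REV pair without spread. The adjusted p of 0.0656 (limma) rests on that and cannot decide whether the genotypes differ. Probe set 245035, with no gene listed and between AT2G26 genes, was higher with dexamethasone in both genotypes: 1763 and 446 in GR-REV, 729 and 171 in wild type. It was among the 6 called for treatment (2.04 ± 0.19, limma, adjusted p = 0.0364), and the only one in the run.

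Of the AT2G07 loci, 2 were tested. Above the floor on all arrays were AT2G07708, with 346 and 311 in GR-REV against 559.8 and 401 in wild type (-0.53 ± 0.25), and AT2G07751, with 283 and 542 in GR-REV against 189 and 323 in wild type (0.67 ± 0.42). The first had both GR-REV arrays below both wild type arrays, the second overlapped, and neither passed the test (adjusted p = 0.377 and 0.51).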
